A study of Homo sapiens with 15 samples.

Results

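The collapsin response mediator proteins (CRMPs) and the transmembrane protein TMEM163 were followed through the RNA-seq libraries of K562, an established human line from chronic myeloid leukemia that carries the BCR-ABL1 fusion. The 6 genes, CRMP1, DPYSL2, DPYSL3, DPYSL4, DPYSL5 and TMEM163, were chosen by name, with the values of PU-H71 resistant (PUHr) against parental cells in view, because nervous system genes stood among the largest rises of that comparison. All 6 were among the 60510 genes listed for the resistance libraries, and DPYSL2 was the only one among the 17769 genes listed for the knockout libraries. Each of the 5 groups had 3 libraries. Cells with an empty vector (EV) and both knockouts, HSP90α-KO and HSP90β-KO, expressed Cas9 and had no drug treatment. The study's methods name guide RNAs against HSP90AA1 and HSP90AB1 for the knockouts and none for EV, which is labelled as wild type, and the comparison asks how loss of either cytosolic HSP90 isoform changes the transcriptome. Parental cells had been kept long-term in DMSO and PUHr cells long-term in the HSP90 inhibitor PU-H71, both labelled as wild type, although the study describes an altered HSP90AA1 locus in PUHr cells. The labels describe the transduced and the long-term treated cells as selected from single clones, and the study speaks of K562 knockout clones, though its account of the transduction stops at a sort by fluorescence marker and says nothing of EV by itself. Where a group is 1 clone, clone and condition cannot be told apart. The study calls its replicates independent, and neither it nor the labels say whether the RNA-seq libraries came from separate cultures, so p-values measure the spread between these libraries, which may be technical.

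A library held 19594381 to 26216730 reads on listed genes, so 1 read was worth 0.0381 to 0.0518 CPM, the read count scaled to library size. HSP90AA1, which encodes HSP90α, was at 88.0 to 92.6 CPM in HSP90α-KO against 683 to 716 CPM in EV, and HSP90AB1, which encodes HSP90β, at 1889 to 1939 CPM in HSP90β-KO against 2782 to 2823 CPM in EV. HSP90AA1 was at 1190 to 1218 CPM in HSP90β-KO, at 1696 to 1721 CPM in parental and at 1553 to 1592 CPM in PUHr cells. The labelled cell type was checked by 11 erythroid markers of K562. The 10 that were listed in the knockout table summed to 1070 to 1084 CPM in EV, 859 to 881 CPM in HSP90α-KO and 912 to 945 CPM in HSP90β-KO, and all 11 to 2831 to 2864 CPM in parental and 2213 to 2301 CPM in PUHr cells. HBE1 was the only one at 3 reads or fewer, in PUHr. The 4 B cell markers summed to 4.53 to 7.18 CPM over the knockout libraries (2 listed), 3.52 to 3.99 CPM in parental and 2.13 to 2.18 CPM in PUHr cells. The 6 fibroblast markers summed to 1.03 to 2.83 CPM over the knockout libraries (1 listed), 10.02 to 10.23 CPM in parental and 5.50 to 6.18 CPM in PUHr cells. The 3 T cell markers, CD3D, CD3E and CD3G, summed to 8.18 to 9.0 CPM in EV, 3.66 to 4.56 CPM in HSP90α-KO, 17.0 to 18.9 CPM in HSP90β-KO, 10.6 to 10.8 CPM in parental and 7.90 to 8.59 CPM in PUHr cells. Among the defining markers LUM and MS4A1 were at 0 in parental and PUHr cells. These sums moved with the groups, and their part in the results was not tested. In such bulk RNA, fewer cells that express a gene and less RNA per cell cannot be told apart.

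CRMPs are cytosolic phosphoproteins that resemble the pyrimidine-degrading enzyme dihydropyrimidinase without sharing its catalytic role. In growing axons they relay the signal of semaphorin 3A, which is received by neuropilins and plexins, to the cytoskeleton. They bind tubulin, and phosphorylation by kinases such as CDK5 and GSK3B weakens this binding. DPYSL2 (CRMP2) is the member found most widely outside the nervous system, whereas DPYSL5 (CRMP5) is mostly known from developing neurons. TMEM163 is a zinc-binding transmembrane protein of synaptic vesicles and endosomes that belongs to the cation diffusion facilitators, the family of the SLC30 zinc exporters.

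DPYSL5 and TMEM163 both lie on chromosome 2, far apart, and both were close to absent in parental cells and high in PUHr cells, so their promoter windows are shown. Each window spans 250 bases before to 50 bases after the annotated start, taken from RefSeq on GRCh38.p14 and written 5′ to 3′ on the strand of the gene, with CG pairs in capitals. DPYSL5 is given at chr2:26847745-26848044 on the plus strand and TMEM163 at chr2:134718951-134719250 on the minus strand.
DPYSL5: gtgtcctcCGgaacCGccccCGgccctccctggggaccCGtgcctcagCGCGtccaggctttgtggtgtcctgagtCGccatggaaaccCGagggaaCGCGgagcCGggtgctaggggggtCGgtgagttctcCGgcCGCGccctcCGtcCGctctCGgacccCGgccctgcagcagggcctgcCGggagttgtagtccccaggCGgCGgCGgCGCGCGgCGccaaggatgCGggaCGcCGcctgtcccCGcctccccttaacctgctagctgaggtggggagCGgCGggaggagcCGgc
TMEM163: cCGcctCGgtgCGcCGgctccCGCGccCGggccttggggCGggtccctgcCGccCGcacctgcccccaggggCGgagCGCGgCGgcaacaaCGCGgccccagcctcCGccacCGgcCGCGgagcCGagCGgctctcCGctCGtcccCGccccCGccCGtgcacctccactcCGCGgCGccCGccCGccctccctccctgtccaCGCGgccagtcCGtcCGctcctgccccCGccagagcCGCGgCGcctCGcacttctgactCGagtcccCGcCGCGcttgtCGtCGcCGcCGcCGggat
The DPYSL5 window shown held 34 CG pairs, more than 84.4% of the 35116 promoter windows of the table, and the TMEM163 window held 50, more than 98.7%. A second DPYSL5 window, at chr2:26847882-26848181, held 44, more than 95.8%. The median window held 14, with quartiles of 4 and 28. The table had 10 windows for 5 of the genes (1 for TMEM163 and DPYSL4, 2 for DPYSL5 and DPYSL3, 4 for CRMP1), and the lowest count was 21, in a CRMP1 window. Motifs were searched on both strands. The heat shock element GAANNTTC, found in 6.77% of all windows, the GATA site AGATAA (10.3%) and the partial REST sites TTCAGCACC (0.376%) and GGACAGCG (1.63%) were in none of the 10 windows. The E-box CACGTG (7.26%) was in 1 CRMP1 window. A missing match says only that these letters are not in this window.

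In parental cells TMEM163 (ENSG00000152128, chr2:134455759-134719000 on the minus strand) had 5, 8 and 2 reads, or 0.211, 0.336 and 0.0938 CPM. PUHr libraries had 479, 460 and 412 reads, or 19.2, 19.2 and 18.3 CPM. All PUHr libraries lay far above all parental ones, at 18.9 ± 0.524 CPM against 0.214 ± 0.121 CPM (mean ± SD, n = 3). The log2 fold change was 6.07, and the ratio of pooled reads was 86.9 with a 95% interval of 52.5 to 156 that covers counting error only. This contrast was the one by which the genes were chosen, so its values are a description and carry no test. By size of the rise TMEM163 ranked 3 and DPYSL5 ranked 5 of 16503 genes tested.

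DPYSL5 (ENSG00000157851, chr2:26847747-26950351 on the plus strand) had 7, 10 and 7 reads in parental cells, or 0.296, 0.419 and 0.328 CPM. In PUHr cells it was at 25.4, 23.5 and 26.1 CPM, on 1780 reads in all. The groups were again far apart, at 0.348 ± 0.0641 CPM in parental and 24.99 ± 1.33 CPM in PUHr cells (mean ± SD, n = 3), with a log2 fold change of 5.86. The ratio of pooled reads was 71.6, with a counting interval of 48.0 to 112. Both log2 fold changes shrink with a larger added constant because the parental values are so low, to 2.20 for TMEM163 and 2.49 for DPYSL5 with 5 CPM added.

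DPYSL2 (ENSG00000092964, chr8:26514031-26658178 on the plus strand) was the only CRMP with more than 10 reads per library in parental cells. It was at 4.65, 4.07 and 4.36 CPM there and at 11.1, 10.4 and 11.8 CPM in PUHr cells. The PUHr libraries were all higher, by 2.55-fold, with a log2 fold change of 1.33 (0.78 with 5 CPM added, which is below the fold threshold of 1). Its rise ranked 580 of 16503.

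The other CRMPs did not come up with DPYSL5. CRMP1 (ENSG00000072832, chr4:5748084-5893086 on the minus strand) had 7, 5 and 6 reads in parental and 0, 1 and 1 reads in PUHr cells. Pooled, this was 9.32 times fewer, with a counting interval of 2.23 to 82.9. DPYSL3 (CRMP4, ENSG00000113657, chr5:147390808-147510068 on the minus strand) had 1, 4 and 1 against 0, 3 and 0 reads, and DPYSL4 (CRMP3, ENSG00000151640, chr10:132186948-132205759 on the plus strand) 0, 2 and 0 against 0, 1 and 0 reads. Both were near or under 3 reads, the most that a count of 0 allows, which was 0.120 to 0.141 CPM in these libraries, and no fold is given. CRMP1, DPYSL3 and DPYSL4 reached a log2 CPM of -1 in 0 of 6 libraries and were not tested, whereas TMEM163 passed the filter through its 3 PUHr libraries alone and DPYSL5 through 4 of 6. Of all genes tested, 10.1% were changed in PUHr, 5.37% were higher, and in 58.5% the libraries of the groups did not overlap. The 3 tested members were all higher and without overlap. As they were chosen on this contrast, nothing is read from these shares.

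**Figure D1:**
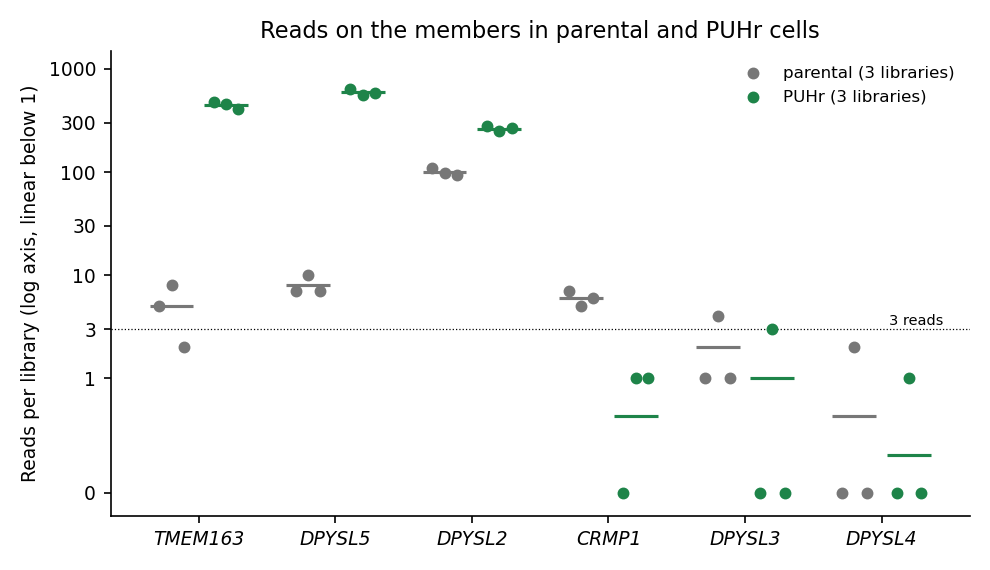
Reads per library on the 6 genes in 3 parental and 3 PUHr libraries, on an axis that is logarithmic above 1 read. Points are libraries, lines are group means, and the dotted line marks 3 reads. TMEM163 and DPYSL5 rise from 2 to 10 reads to 412 to 632 reads, while CRMP1, DPYSL3 and DPYSL4 stay at 7 reads or fewer in every library.

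Between genes, levels were compared per kilobase of merged exons. In PUHr cells DPYSL5 stood highest, at 3.54 ± 0.189 CPM per kb, followed by TMEM163 at 2.78 ± 0.0770 and DPYSL2 at 1.52, and the libraries of these genes did not overlap. In parental cells DPYSL2 led at 0.598 CPM per kb. DPYSL5 (0.0494), CRMP1 (0.0447) and TMEM163 (0.0314) followed with overlapping libraries, and DPYSL3 (0.0119) and DPYSL4 (0.0090) came last. The order of DPYSL2 and DPYSL5 was thus opposite in the 2 groups.

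Overlapping annotations carried few reads. A long noncoding RNA antisense to TMEM163, ENSG00000287463, had 0, 0 and 0 reads in parental and 1, 5 and 5 reads in PUHr cells, and one inside DPYSL5, ENSG00000230286, had 0 in all 6, as had PSME2P5 in DPYSL2 and ENSG00000272239 in DPYSL3. PNMA2, which overlaps DPYSL2, had at most 4 reads in any of the 6 libraries. EVC, which overlaps CRMP1 and encodes a protein of the ciliary membrane, had 40, 45 and 29 reads in parental and 13, 14 and 15 in PUHr cells. The library kit was stranded but the strand setting of the counting is not given in the sources used here, so reads of CRMP1 and EVC may not be fully separated.

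Of the tested genes near TMEM163 and DPYSL5, SLC30A3 alone was changed in PUHr, where 10.1% of all genes were. Of 5 tested genes within 500 kb of TMEM163 none was changed in PUHr, and their log2 fold changes ran from -0.41 to 0.41. MGAT5, an N-glycan branching enzyme whose annotated end lies 1.14 kb from that of TMEM163, was at 90.3 CPM in PUHr and 82.9 CPM in parental cells (log2 fold change 0.12), and CCNT2, a cyclin gene on its other side, had a log2 fold change of 0.06. Of 26 tested genes within 500 kb of DPYSL5, 1 was changed, the zinc exporter gene SLC30A3 (log2 fold change 1.14), and the median was -0.08. The nearest tested protein-coding genes were MAPRE3, which encodes a microtubule plus-end protein, at 0.03 and CENPA, the centromeric histone H3 variant, at -0.18. Near CRMP1 2 of 3 tested genes rose and EVC fell. Among the risen, ENSG00000286176 was at 0 CPM in parental and 0.635 CPM in PUHr cells, so its direction was set by the filter. Near DPYSL4 1 of 7 fell, and near DPYSL3 none was tested. Of 3 tested genes within 500 kb of DPYSL2 none was changed in PUHr. BNIP3L, a mitophagy receptor gene 8.395 kb from DPYSL2, was at 124 CPM in PUHr and 73.5 CPM in parental cells, a log2 fold change of 0.75 (SE 0.03, limma adjusted p = 2.8e-11 by Benjamini-Hochberg), below the fold threshold.

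The genes most alike in pattern were found by the root mean square difference of log2 CPM, less the parental mean, over the 6 libraries. For TMEM163 these were SULT1C4, a sulfotransferase gene (0.22), MAPK4, an atypical MAP kinase gene (0.23), and LHFPL6, a tetraspan membrane protein gene (0.25). SULT1C4 rose from 0 to 2 reads to 158 to 191 reads per library and LHFPL6 from 1 to 4 to 262 to 316. For DPYSL5 they were the noncoding RNA LINC01203 (0.13), GNAO1, the Go α subunit gene abundant in brain (0.15), and again MAPK4 (0.15). GNAO1 went from 12 to 13 reads to 783 to 892 and MAPK4 from 6 to 13 to 620 to 649. DPYSL5 was 5th in the order of likeness to TMEM163 and TMEM163 8th in that to DPYSL5, both at 0.34. These lie on other chromosomes, apart from SULT1C4 on chromosome 2. All of them share the contrast that chose the members.

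The knockout libraries did not choose the genes, and there DPYSL2 could be tested. It was at 49.4, 49.5 and 48.1 CPM in EV, at 15.8, 15.0 and 14.9 CPM in HSP90α-KO and at 42.4, 45.7 and 46.1 CPM in HSP90β-KO, on 290 to 1262 reads per library. The HSP90α-KO libraries lay far below all others, and those of HSP90β-KO lay just under those of EV without overlap. DPYSL2 fell 3.21-fold in HSP90α-KO, from 49.0 ± 0.766 to 15.3 ± 0.484 CPM (mean ± SD, n = 3), a log2 fold change of -1.68 (SE 0.05, limma adjusted p = 4.4e-20 by Benjamini-Hochberg over 17039 genes). Of all genes tested, 10.3% were changed in this comparison, 5.01% were lower, and 57.3% had libraries that did not overlap. In HSP90β-KO DPYSL2 was at 44.7 ± 2.00 CPM, a log2 fold change of -0.13 (SE 0.05, limma adjusted p = 0.0445), and did not reach the fold threshold. An adjusted p under 0.05 was reached by 34.4% of genes in that comparison, 4.48% were changed and 46.6% had libraries that did not overlap. Without HSP90β-KO replicate 1, the lowest of its group, the limma adjusted p was 0.237, and it ranged from 0.0087 to 0.237 over 19 alternatives, with 9 of them over 0.05. Both knockouts are compared with the same EV libraries, so their difference was tested directly. DPYSL2 was lower in HSP90α-KO than in HSP90β-KO by a log2 fold change of -1.55 (SE 0.05, limma adjusted p = 1.3e-19), in a comparison in which 12.7% of genes were changed, 5.57% were lower and 63.8% had libraries that did not overlap.

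BNIP3L stood beside DPYSL2 here as well. It was at 132, 127 and 136 CPM in EV, 81.5, 79.8 and 82.3 CPM in HSP90α-KO and 144, 136 and 136 CPM in HSP90β-KO. Its libraries were thus lowest in HSP90α-KO, by a log2 fold change of -0.69 against EV (SE 0.04, limma adjusted p = 5.0e-15) and of -0.77 against HSP90β-KO. The pseudogene SDAD1P1, on 2.56 CPM in HSP90α-KO and 4.97 CPM in EV, had a log2 fold change of -0.95 (limma adjusted p = 2.3e-06). PPP2R2A, a regulatory subunit gene of protein phosphatase 2A and the third tested gene within 500 kb of DPYSL2, was at 68.9 CPM in HSP90α-KO and 68.3 CPM in EV (0.01). None of these 3 passed the fold threshold against EV. Between the knockouts SDAD1P1 was lower in HSP90α-KO by a log2 fold change of -1.004 (limma adjusted p = 7.3e-07), which was past the threshold by less than 0.01 and under it in 6 of 19 alternatives, among them those without HSP90α-KO replicate 1 or 3 or HSP90β-KO replicate 2.

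**Figure D2:**
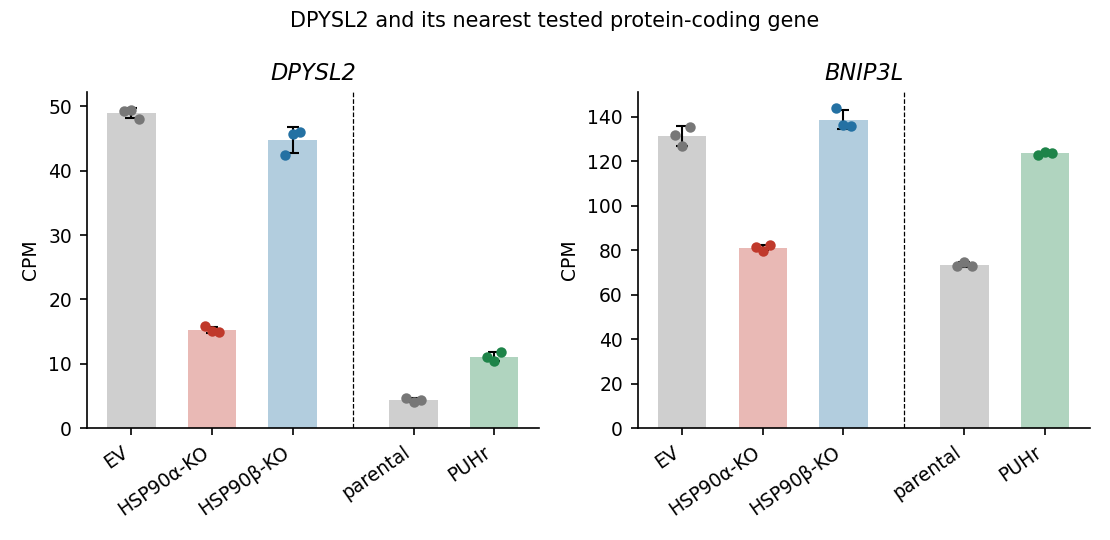
CPM of DPYSL2 and of BNIP3L, its nearest tested protein-coding gene, in all 5 groups. Bars are means, error bars SD and points the 3 libraries; the dashed line separates the knockout and resistance tables, which were normalized separately. DPYSL2 is at 15.3 CPM in HSP90α-KO against 49.0 in EV, and BNIP3L at 81.2 against 131.

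Between the tables only levels can be set side by side, as they were normalized separately. DPYSL2 was at 49.0 CPM in EV and 4.36 CPM in parental cells, and even the HSP90α-KO libraries lay above the PUHr libraries at 11.1 CPM. EV and parental cells differ at least in vector, Cas9 and long-term DMSO treatment, and perhaps in clone, and these cannot be told apart.

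The wider semaphorin and CRMP pathway was described by 40 genes, of which 35 were tested in the knockout and 34 in the resistance table. In HSP90α-KO 2 rose and 5 fell, in HSP90β-KO 2 rose and 2 fell, and in PUHr 5 rose and 1 fell. Over all genes 10.3%, 4.48% and 10.1% were changed. Genes that passed the filter through 1 group, with at most 1 library outside it, had their direction set by the filter. Without CDK5R2, SEMA3D and SEMA3F, 5 of 32 were changed in HSP90α-KO and 3 of 32 in HSP90β-KO, and without CDK5R2, NRP2 and SEMA3D 4 of 31 in PUHr. Values follow by role.

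Of the semaphorin 3 ligands, the secreted guidance cues, 4 were tested in the knockout table. SEMA3A was at 1.43, 0.916 and 1.30 CPM in EV, 0.537, 0.155 and 0.359 CPM in HSP90α-KO and 3.96, 2.99 and 2.73 CPM in HSP90β-KO, so the 3 groups did not overlap. It fell in HSP90α-KO (log2 fold change -1.64, limma adjusted p = 1.4e-05) and rose in HSP90β-KO (1.35, adjusted p = 0.00032). SEMA3D fell in both, from 40, 21 and 33 reads in EV to 1, 1 and 2 in HSP90α-KO and 4, 8 and 4 in HSP90β-KO. The pooled ratio for HSP90α-KO was 20.5, with a counting interval of 7.74 to 76.7, and the gene passed the filter through the EV libraries alone. In PUHr none of 3 tested ligands was changed by limma. SEMA3A was at 2.27 CPM against 3.68 CPM in parental cells (log2 fold change -0.68, adjusted p = 0.00078), and it was the only one of the 3 with an adjusted p under 0.05.

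The receptors and co-receptors, 8 genes, had more changed genes in PUHr than any other of the semaphorin and CRMP lists. Of 7 tested there, 4 rose and none fell, beside 10.1% of all genes changed and 5.37% higher. The median log2 fold change was 1.34 against 0.00 over all genes. PLXNA2, a plexin that signals for semaphorins, rose from 4.31, 4.45 and 4.83 CPM in parental to 28.4, 27.3 and 27.5 CPM in PUHr cells (log2 fold change 2.59, SE 0.07, limma adjusted p = 9.9e-13). NRP2, a neuropilin that binds semaphorins 3C and 3F, rose from 2, 5 and 6 reads to 133, 121 and 133 reads (log2 fold change 4.38). The pooled ratio was 28.7, with a counting interval of 16.6 to 54.5. As NRP2 passed the filter through its PUHr libraries alone it had to be higher there, so its p is not given. Without it 3 of 6 receptor genes rose, and the median is lower than 1.34. L1CAM, an adhesion molecule that joins the semaphorin 3A receptor, rose from 0.451 to 3.23 CPM (log2 fold change 2.62) and NRP1, which binds semaphorin 3A, from 0.379 to 1.07 CPM (1.34). PLXNA1, PLXNA3 and PLXND1 lay within 0.57 of 0. With 5 CPM added only PLXNA2 and NRP2 remained past the thresholds.

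In HSP90α-KO 3 of 6 tested receptor genes fell and 1 was at the threshold, beside 5.01% of all genes lower and 10.3% changed. PLXNA2 fell from 45.0, 46.4 and 44.9 CPM in EV to 19.2, 15.7 and 14.7 CPM (log2 fold change -1.46, SE 0.07, limma adjusted p = 6.9e-16). NRP2 went from 17, 23 and 34 reads to 1, 1 and 0, a pooled ratio of 32.2 with a counting interval of 8.62 to 271. L1CAM fell from 17, 17 and 17 reads to 6, 5 and 2 (log2 fold change -1.52, limma adjusted p = 0.00016). PLXND1 was at 52.0 CPM against 25.9 CPM, a log2 fold change of 1.00 that is past the threshold by less than 0.01 and was under it in 7 of 19 alternatives, among them those without EV replicate 1, EV replicate 3 or HSP90α-KO replicate 1 (0.88 to 1.04 over all 19). The median of the list was -0.98 against -0.01 over all genes.

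In HSP90β-KO NRP2 was high, at 182, 195 and 229 reads (log2 fold change 2.94 against EV, limma adjusted p = 1.9e-10). Between the knockouts the pooled ratio was 258, with a counting interval of 71.1 to 2133, and the fitted log2 fold change of -6.18 depends on the prior count. PLXNA2 was at 22.1, 22.4 and 23.1 CPM, a log2 fold change of -1.01 that was under the threshold in 5 of 19 alternatives, among them those without EV replicate 2 or HSP90β-KO replicate 1 (-1.05 to -0.87 over all 19). The libraries of L1CAM overlapped with those of EV.

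**Figure D3:**
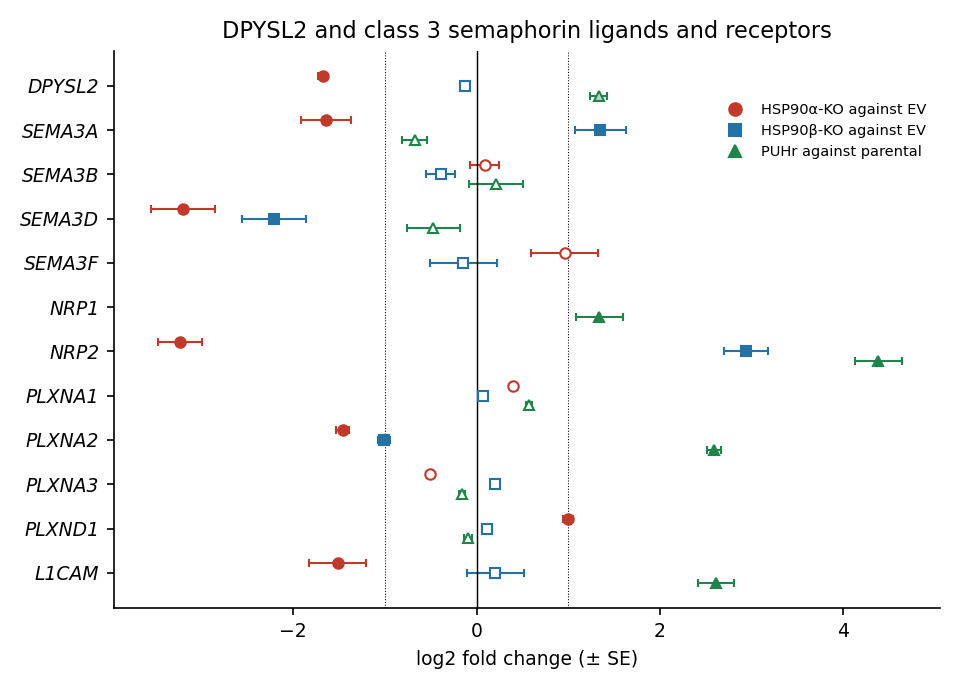
Log2 fold changes (± SE) of DPYSL2 and of the tested semaphorin 3 ligands and receptors in HSP90α-KO against EV (circles), HSP90β-KO against EV (squares) and PUHr against parental cells (triangles). Filled symbols passed an adjusted p of 0.05 and a log2 fold change of 1 or -1 (dotted lines), and the gray triangle of DPYSL2 is from the contrast that chose it and has no test. PLXNA2 and L1CAM are at -1.46 or below in HSP90α-KO and at 2.59 or above in PUHr, and PLXNA2 is at -1.01 in HSP90β-KO. DPYSL2 and NRP2 are below -1.46 in HSP90α-KO as well. In PUHr NRP2 passed the filter by its PUHr libraries alone. SEMA3A is below 0 in HSP90α-KO and in PUHr (-1.64 and -0.68), as is PLXNA3. PLXNA1 is above 0 in both, and PLXND1 is at 1.00 and -0.09.

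Of 15 kinases and GTPases with the oxidase MICAL1, 14 were tested in PUHr and 2 changed. All 15 were tested in the knockouts, where 1 changed in HSP90α-KO and none in HSP90β-KO by limma. The shares over all genes were 10.1%, 10.3% and 4.48%. With no fold threshold, 8 in PUHr, 8 in HSP90α-KO and 5 in HSP90β-KO had a limma adjusted p under 0.05. The matching shares of all genes were 51.4%, 54.2% and 34.4%. CDK5R2, a neuronal activator of CDK5, had 31, 49 and 30 reads in PUHr against 5, 4 and 5 in parental cells (log2 fold change 2.46), and passed the filter through the PUHr libraries alone. In HSP90α-KO it was called higher by 1.14 on at most 11 reads, having passed the filter with none of the EV libraries, and the call was lost without EV replicate 1. MICAL1, an enzyme that oxidizes actin downstream of plexins, fell in PUHr from 16.4 to 6.86 CPM (log2 fold change -1.24, limma adjusted p = 9.0e-09). FARP2, an exchange factor bound by plexins, had a log2 fold change of 1.02 between the knockouts, which was under the threshold in 5 of 19 alternatives, among them those without HSP90α-KO replicate 1 or HSP90β-KO replicate 2. None of 10 CRMP binding partners and proteases, which include tubulins, NUMB and calpains, was changed by limma in any comparison, and their log2 fold changes ran from -0.88 to 0.75. An adjusted p under 0.05 was reached by 7 of the 10 in HSP90α-KO, 5 in HSP90β-KO, 8 between the knockouts and 8 in PUHr, beside 54.2%, 34.4%, 59.9% and 51.4% of all genes. The pyrimidine breakdown enzymes DPYS, DPYD and UPB1 were tested in neither table, with at most 10 reads in any parental or PUHr library.

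For TMEM163, the lists of zinc handling held 33 genes. In PUHr 2 of 23 tested rose and none fell, in HSP90α-KO 1 of 21 was changed and in HSP90β-KO none of 21, beside 10.1%, 10.3% and 4.48% of all genes. SLC30A4, an exporter that loads zinc into vesicles, rose from 0.634, 0.378 and 1.17 CPM to 4.30, 4.89 and 4.89 CPM (log2 fold change 2.67, limma adjusted p = 1.2e-06). SLC30A3, the exporter that fills synaptic vesicles with zinc, rose from 10.1 to 22.4 CPM (log2 fold change 1.14, limma adjusted p = 2.5e-08). The gene changed in HSP90α-KO was SLC30A10, known as a manganese exporter. It fell from 16.7, 15.8 and 15.3 CPM to 2.10, 2.02 and 2.21 CPM (log2 fold change -2.87, limma adjusted p = 1.2e-19). It was at 14.5 CPM in HSP90β-KO and differed between the knockouts by -2.73. In HSP90β-KO 7 of the 21 had a limma adjusted p under 0.05, beside 34.4% of all genes, without passing the fold threshold. Of 9 genes in the list of metallothioneins, MTF1 and MCOLN1, 3 were tested in the knockouts and 4 in PUHr. The only metallothioneins among them were MT2A and, in PUHr alone, MT1X. None of those tested was changed in any comparison, with log2 fold changes from -0.23 to 0.76. A limma adjusted p under 0.05 was reached by 1 in HSP90α-KO, 0 in HSP90β-KO, 1 between the knockouts and 2 in PUHr. The shares of all genes were 54.2%, 34.4%, 59.9% and 51.4%.

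Of 29 neuronal genes, 16 had at most 3 reads in each parental library and as many in each PUHr library, and 9 were tested. In PUHr 3 of these rose and 2 fell, beside 10.1% of all genes changed, and 6 of the 9 were higher, with a median log2 fold change of 0.36 against 0.00 over all genes. The fallen genes include SCG2, whose direction was set by the filter. SCG3, a granule protein gene, rose from 0.803, 1.22 and 0.797 CPM to 7.67, 9.03 and 7.65 CPM (log2 fold change 3.02, limma adjusted p = 1.5e-09). MAPT, which encodes tau, rose from 3.75 to 10.4 CPM (1.45) and the intermediate filament gene INA from 7.32 to 16.5 CPM (1.16). SCG2, another granule protein gene, fell from 2.43 to 0.282 CPM (-2.77), having passed the filter through the parental libraries alone, and the neurofilament gene NEFH from 65.0 to 31.2 CPM (-1.06). The summed level of all 29 was 99.1 to 102 CPM in parental and 87.8 to 91.9 CPM in PUHr cells. NEFH set the direction of this sum: without it, a choice made after the values were seen, the other 28 summed to 34.4 to 36.2 CPM in parental and 56.5 to 60.5 CPM in PUHr cells.

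Among the knockout libraries 9 neuronal genes were tested as well, and 3 were changed in each knockout against EV, beside 10.3% and 4.48% of all genes. Both counts include SCG3, and the filter set its direction in HSP90β-KO. In HSP90α-KO SCG2 had 0, 1 and 1 reads against 24, 13 and 19 in EV, SYT1, a calcium sensor of synaptic vesicles, fell from 2.27 to 0.492 CPM (log2 fold change -2.02), and SCG3 rose by 1.09 on at most 12 reads, a call lost without EV replicate 2 or HSP90α-KO replicate 1. The pooled ratio of SCG2 was 24.4, with a counting interval of 6.45 to 206. In HSP90β-KO SCG3, which passed the filter with none of the EV libraries, rose by 2.94, while INA fell by 2.61 and SYT1 by 1.32 on the log2 scale. Of the 9 genes of the REST complex, which represses neuronal genes in other tissues, RCOR2 rose in PUHr from 6.26 to 14.5 CPM (log2 fold change 1.20), and no other was changed in PUHr or in either knockout against EV. The log2 fold changes in PUHr ran from -0.63 to 1.20. A limma adjusted p under 0.05 was reached by 4 of the 9 in PUHr, 6 in HSP90α-KO and 3 in HSP90β-KO. The shares of all genes were 51.4%, 54.2% and 34.4%. REST itself was at 57.0 CPM in PUHr and 55.6 CPM in parental cells (log2 fold change 0.04, limma adjusted p = 0.45).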

How the data were processed

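Poly(A)-selected RNA of 15 K562 libraries in 5 groups of 3 was sequenced as single 76-base reads. Per the study's methods and the submitters' processing notes, the authors used STAR for alignment to GRCh38 (hg38), featureCounts for gene counts and edgeR for normalization. Versions, annotation and strand setting are not given in the sources used here. The deposited values are log2 CPM with a prior count, in one table for the knockout and one for the resistance libraries, normalized separately, so tests stayed within a table. From the steps between low values whole reads were recovered for 100% of values, within 0.01 reads. Rows without an identifier (30 and 114, at most 0.0363% of reads) were left out. CPM are given without the prior count.

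Groups were compared with limma 3.58.1 (R 4.3.3) on the deposited log2 CPM with an intensity trend, over the 17039 and 16503 genes that reached a log2 CPM of -1 in 3 libraries or more. The 3 knockout groups shared 1 fit. A gene was called changed, risen or fallen where its log2 fold change lay beyond 1 or -1 with a Benjamini-Hochberg adjusted p below 0.05. limma with voom weights on the recovered reads called 1932 genes in HSP90α-KO against EV (1760 by the main test), 862 in HSP90β-KO against EV (764), 2351 between the knockouts (2166) and 1803 in PUHr (1660). Fold changes are on the scale of log2 CPM with the prior count, which understates the change of low genes. Exact 95% intervals of pooled read ratios cover counting error only. Low-value filters, added constants, scalings, weights, a replicate block and each replicate left out were tried as alternatives. The fit was also run on simulated data, and no value from that run is used here.

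The members and gene lists were chosen with earlier results of these data known. Named were all members, the 3 genes most alike in pattern to TMEM163 and DPYSL5, up to 3 changed genes per list and direction, overlapping genes and the nearest tested protein-coding genes of TMEM163 and DPYSL5. NRP1, unchanged genes of the lists, BNIP3L, PPP2R2A and SDAD1P1 were named after their values were seen.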

Additional observations from a re-analysis of the deposited data

Results flagged for a closer look

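Of 78 tested genes (DPYSL2, its 3 neighbours and the gene lists), 12, or 15.4%, passed both thresholds in the test of the difference between the knockouts, HSP90α-KO against HSP90β-KO, by limma with Benjamini-Hochberg adjustment, beside 12.7% of all genes. Both knockouts share the EV libraries. DPYSL2 was lower in HSP90α-KO by a log2 fold change of -1.55. Lower as well were SEMA3A at -3.00, NRP2 at -6.18, L1CAM at -1.72, SLC30A10 at -2.73, SCG2 at -3.22, SCG3 at -1.85 and the pseudogene SDAD1P1 at -1.004. Higher in HSP90α-KO were SEMA3F at 1.11, FARP2 at 1.02, SLC39A11 at 1.01 and INA at 2.90. SEMA3F was on at most 11 reads in a library, passed the filter through the HSP90α-KO libraries alone and lost the call without HSP90β-KO replicate 2. SLC39A11 lost it without HSP90α-KO replicate 1. SCG3 passed the filter through the HSP90β-KO libraries and 1 HSP90α-KO library. The filter thus set the direction of SEMA3F and SCG3, and the count of 12 includes both.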

How the results depend on the processing

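PUHr against parental is the contrast that chose the members, so their values there carry no test. With 5 CPM added DPYSL2 was at a log2 fold change of 0.78, below the fold threshold. TMEM163, which passed the filter through its PUHr libraries alone, no longer passed it without any 1 PUHr replicate. DPYSL2 in HSP90α-KO kept its direction and call in 19 alternatives, with log2 fold changes from -1.72 to -1.41, and from -1.70 to -1.66 with 1 replicate left out. In PUHr the log2 fold change ran from 2.20 to 6.51 for TMEM163 and from 2.49 to 6.15 for DPYSL5. No result reversed. Of 944 fold changes under alternatives, 853 were counted as the same, 84 fell below a threshold and 7 moved. For the members in PUHr, the same meant a shift smaller than the larger group SD, and moved a shift beyond it. For all others the same meant that the call did not change. Of 648 list counts, 65 moved. Genes under about 1 CPM lost their calls mostly with 1 or 5 CPM added. Depth limits CRMP1, DPYSL3 and DPYSL4.

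Same-numbered replicates did not deviate together (r from -0.0481 to 0.031 over 9 knockout pairs and from 0.0068 to 0.0449 over 3 resistance pairs). With the replicate block 907 genes were higher and 852 lower in HSP90α-KO, 310 and 453 in HSP90β-KO, 1216 and 949 between the knockouts, and 887 and 775 in PUHr. Under the block DPYSL2 had a limma adjusted p of 0.063 in HSP90β-KO against EV.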
